A study of Mus musculus with 3 samples.

Results

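The 9 genes described here, Apoe, Slc9a9, Selenop, Fgf13, Psd3, Cxcl14, Sox5, Lpl and St18, were taken by symbol from the 32285 genes of the count matrices, because they varied most between untreated bone marrow-derived macrophages (BMDMs) in opposite groups of cells. Values of the untreated library chose them, so what they show in that library is a description of the choice. The treated libraries did not enter the rule, but earlier results of these data were known. The paper also names Apoe, Slc9a9, Selenop, Fgf13 and Lpl as subset genes from clusters of all 3 samples. What the treated libraries show is therefore not independent evidence. BMDMs are macrophages grown in a dish from bone marrow cells, here of female C3H/HeN mice aged 6 to 8 weeks, with L929 cell-conditioned medium. No transgene or deletion is given for them. The paper gives pooled marrow in its general culture method. For the single-cell libraries it gives BMDMs of 3 mice, treated independently. Droplet-based 3′ single-cell RNA sequencing counts each transcript by a unique molecular identifier (UMI), and 1 library was made for each of 3 conditions. UI is the untreated library, whose cells received PBS. LP1 and LP4 are the libraries of cells given purified lipoproteins of Borrelia burgdorferi (BbLP) at 1 µg/mL for 1 and 4 hours. UI cells were collected at 4 hours, as were those of LP4. Cells of 3 wells were pooled before each library, so no condition had a replicate, no test between conditions was possible, and the intervals below (95%) cover counting error only.

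Macrophages that share a culture need not be in 1 state. Some hold programs known from macrophages resident in tissue, such as complement C1q, lipid efflux and the uptake of dying cells, and others a program of growth, adhesion and lipid uptake. Bacterial lipoproteins are sensed by Toll-like receptors of the cell surface, which switch on genes of inflammation within hours and switch off part of the resting program.

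The genes fell into 2 sides by the sign of their correlation with Apoe between UI cells. The Apoe side held 3 of them. Apoe encodes apolipoprotein E, a carrier of cholesterol that macrophages secrete. Slc9a9 encodes a sodium-proton exchanger of endosomes, and Selenop encodes selenoprotein P, the secreted carrier of selenium. The Fgf13 side held the other 6, among them St18, whose correlation with Apoe was only -0.02. Lpl encodes lipoprotein lipase, which releases fatty acids from lipoproteins, and Cxcl14 encodes a chemokine. Fgf13 encodes a fibroblast growth factor homologous factor, a protein that stays inside the cell and is best known as a partner of sodium channels in neurons. Psd3 encodes an exchange factor for the small GTPase ARF6, and Sox5 and St18 encode transcription factors of the SOXD and MYT families.

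On mouse build GRCm38 (mm10), the one the labels name, GENCODE vM21 placed each of them as a protein-coding gene with the same identifier as in the matrices. Apoe (ENSMUSG00000002985) lies on the minus strand of chromosome 7 at 19696109 to 19699188, Selenop (ENSMUSG00000064373) on the plus strand of chromosome 15 at 3268547 to 3280508, and Slc9a9 (ENSMUSG00000031129) on the plus strand of chromosome 9 at 94669909 to 95230445. Fgf13 (ENSMUSG00000031137) lies on the minus strand of chromosome X at 59062145 to 59568071, Cxcl14 (ENSMUSG00000021508) on the minus strand of chromosome 13 at 56288643 to 56296551, and Lpl (ENSMUSG00000015568) on the plus strand of chromosome 8 at 68880491 to 68907448. Psd3 (ENSMUSG00000030465) lies on the minus strand of chromosome 8 at 67689082 to 68212027, Sox5 (ENSMUSG00000041540) on the minus strand of chromosome 6 at 143828425 to 144781977, and St18 (ENSMUSG00000033740) on the plus strand of chromosome 1 at 6487231 to 6860940. In length the genes differed widely, from 3.08 kb for Apoe to 954 kb for Sox5. Exons covered 69.4% of Apoe but 0.794% of Fgf13, 1.01% of Slc9a9, 1.51% of Sox5, 1.73% of St18 and 3.37% of Psd3. Whether reads in introns were counted is not given in the sources used here, and it bears most on these 5 long genes.

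RefSeq promoter sequences (GRCm38.p6) matched 6 of the 9 genes, and the 250 bases before the start nearest to the GENCODE 5′ end are shown for 4 of them. Slc9a9 and Fgf13 are shown because they fell most after 4 hours, Apoe because it defined its side, and Cxcl14 as a second gene of the other side. They lie at chr7:19699189-19699438 on the minus strand (Apoe), chr9:94669642-94669891 on the plus strand (Slc9a9), chrX:59567349-59567598 on the minus strand (Fgf13) and chr13:56296552-56296801 on the minus strand (Cxcl14), and each is written 5′ to 3′ with motif matches in capitals.
Apoe: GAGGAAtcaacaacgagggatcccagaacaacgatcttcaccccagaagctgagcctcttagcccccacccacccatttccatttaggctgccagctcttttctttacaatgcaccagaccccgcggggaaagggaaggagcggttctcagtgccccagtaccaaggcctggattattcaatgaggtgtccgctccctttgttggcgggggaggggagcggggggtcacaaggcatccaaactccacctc
Slc9a9: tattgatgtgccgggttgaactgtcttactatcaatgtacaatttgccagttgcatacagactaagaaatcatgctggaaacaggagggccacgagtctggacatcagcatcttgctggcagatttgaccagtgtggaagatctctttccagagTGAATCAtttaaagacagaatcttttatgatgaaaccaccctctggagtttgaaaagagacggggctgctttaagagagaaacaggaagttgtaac
Fgf13: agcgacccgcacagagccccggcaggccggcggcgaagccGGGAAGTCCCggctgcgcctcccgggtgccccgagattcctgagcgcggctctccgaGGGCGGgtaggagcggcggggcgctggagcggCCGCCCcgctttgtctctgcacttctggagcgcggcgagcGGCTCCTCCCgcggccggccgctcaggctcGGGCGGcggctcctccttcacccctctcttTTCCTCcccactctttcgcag
Cxcl14: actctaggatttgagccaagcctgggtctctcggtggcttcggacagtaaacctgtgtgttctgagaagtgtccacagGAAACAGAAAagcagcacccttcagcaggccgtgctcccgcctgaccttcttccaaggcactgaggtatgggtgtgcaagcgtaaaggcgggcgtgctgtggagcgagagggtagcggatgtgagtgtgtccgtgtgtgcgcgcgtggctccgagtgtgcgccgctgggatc
In these windows 8 motifs were searched on both strands, namely the PU.1 core GAGGAA, the AP-1 motif TGANTCA, the E-box CACGTG, the TATA box as TATAAA, the box named CCAAT, the GC box as GGGCGG, and the NF-kB and interferon response motifs. The Apoe window held 1 GAGGAA, as did the Fgf13 window as TTCCTC, and 23.3% of all 32817 promoter windows of this length hold it. The Slc9a9 window held 1 TGANTCA, found in 6.75% of windows, and the Cxcl14 window 1 interferon response motif, found in 2.97%. The Fgf13 window held 2 NF-kB motifs and 3 GGGCGG, found in 17.6% and 32.7% of windows, and was 74.8% G and C against a median of 52.4%. No motif was matched in all 4 windows, and a match describes letters only.

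The members were described in 5941 UI, 4970 LP1 and 4529 LP4 cells of macrophage-like and cycling-like clusters, which were 97.0% to 98.1% of the cells kept in a library. Of 12 macrophage markers none was at 0, and their summed level was 13488 to 13944 counts per 1000000 UMIs (CPM). Summed markers of other cells were 45.5 to 113 CPM for 13 neutrophil genes, 142 to 172 CPM for 13 dendritic cell genes and 1.47 to 1.91 CPM for 11 stromal genes. They were 263 to 284 CPM for 7 osteoclast genes. Ly6g, Ccr7 and Col1a1 were at or near 0, but other markers of these lists were not. Csf3r of the neutrophil list was at 35.3, 29.2 and 79.0 CPM in UI, LP1 and LP4. Itgax and Cd74 of the dendritic cell list were at 82.0 and 66.1 CPM in UI. Cells were shallowest in UI, with a median of 5153 UMIs against 9363.5 in LP1 and 11864 in LP4. The part of depth in differences of level was not tested.

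The Apoe side was lower after 1 hour of BbLP, and the 6 genes of the other side were each as high or higher. After 4 hours this order was gone, and the 2 largest changes were falls in 1 gene of each side, Slc9a9 and Fgf13. Levels are UMIs of a gene per 1000000 UMIs of the cells. They are compared between libraries only, since a 3′ count is not per length and its level depends on the gene.

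Slc9a9 stood at 225 CPM in UI (220 to 230), 161 in LP1 (157 to 164) and 45.0 in LP4 (43.3 to 46.7). Fgf13 stood at 341 CPM in UI (335 to 347), 422 in LP1 (416 to 428) and 80.8 in LP4 (78.6 to 83.1). Both were therefore lowest in LP4, but Slc9a9 was already lower in LP1 and Fgf13 was higher there. The log2 ratio of LP4 to UI was -2.32 for Slc9a9 (-2.39 to -2.26) and -2.08 for Fgf13 (-2.12 to -2.03). Of 8010 genes with at least 10 CPM in LP4 or UI, 9.93% were lower by at least 2-fold in LP4 and 10.6% were higher. Fgf13 was at percentile 1.64 of these ratios and Slc9a9 below it. They were the only members past 2-fold in LP4, so 2 of 9 were called lower and 0 of 9 higher, and 2 calls are too few to read against that background. Against LP1 the same 2 genes were lower by at least 2-fold, at log2 ratios of -1.84 (Slc9a9) and -2.38 (Fgf13), beside 7.56% of 7945 genes, and 0 members were higher, beside 8.72%.

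Apoe stood at 353 CPM in UI (347 to 360), 229 in LP1 (225 to 233) and 179 in LP4 (176 to 183). Its log2 ratio to UI was -0.62 in LP1 and -0.98 in LP4, just short of 2-fold. Selenop, which moved least of the Apoe side, stood at 540 CPM in UI (532 to 547), 479 in LP1 (473 to 485) and 587 in LP4 (581 to 593). In LP1 all 3 genes of the side were thus below UI with intervals apart, by log2 ratios of -0.62, -0.48 and -0.17 for Apoe, Slc9a9 and Selenop. The size of these changes was small against a 2-fold limit, which 0.478% of 7743 genes passed downwards and 0.672% upwards in LP1, and which no member passed. Apoe and Slc9a9 were still at percentiles 2.25 and 4.99 of all ratios of LP1 to UI, and Selenop at 27.5.

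On the other side, Lpl stood at 2101 CPM in UI (2086 to 2116), 2602 in LP1 (2588 to 2616) and 2284 in LP4 (2272 to 2296). Cxcl14 stood at 125 CPM in UI (122 to 129), 133 in LP1 (129 to 136) and 95.7 in LP4 (93.2 to 98.2). Lpl and Fgf13 had the same log2 ratio of 0.31 in LP1, at percentiles 87.0 and 87.0, but parted in LP4, where Lpl was at 0.12. Psd3, the exchange factor, was at 53.9, 61.9 and 66.4 CPM in UI, LP1 and LP4, with log2 ratios to UI of 0.20 and 0.30. St18 was at 57.3, 58.6 and 37.2 CPM, and its interval in LP1 spanned 0 (-0.05 to 0.11), while in LP4 it was lower by a log2 ratio of -0.62. Sox5 was the lowest of the 9 in count, with 743 UMIs in UI, and the only one to near 2-fold upwards.

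Sox5 stood at 21.2 CPM in UI (19.7 to 22.8), 24.7 in LP1 (23.4 to 26.1) and 41.5 in LP4 (39.9 to 43.2). The log2 ratio of LP4 to UI was 0.97 (0.85 to 1.09). All ratios are relative to total UMIs, and the median gene of LP4 over UI was at -0.07. TMM and median-of-ratios scaling moved that median by 0.19 and 0.23, and under either Sox5 passed 2-fold, which makes 1 member higher in place of 0. Of the antisense genes of the Sox5 locus, Sox5os3 and Sox5os4 were at 0.224 and 0.336 CPM in UI and at 1.94 and 1.71 CPM in LP4, far below Sox5 itself. Whether the counting used strand is not given in the sources used here. Of the other genes that overlap a member, Ccdc152 on the strand opposite to Selenop was at 2.82 to 6.36 CPM.

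**Figure D1:**
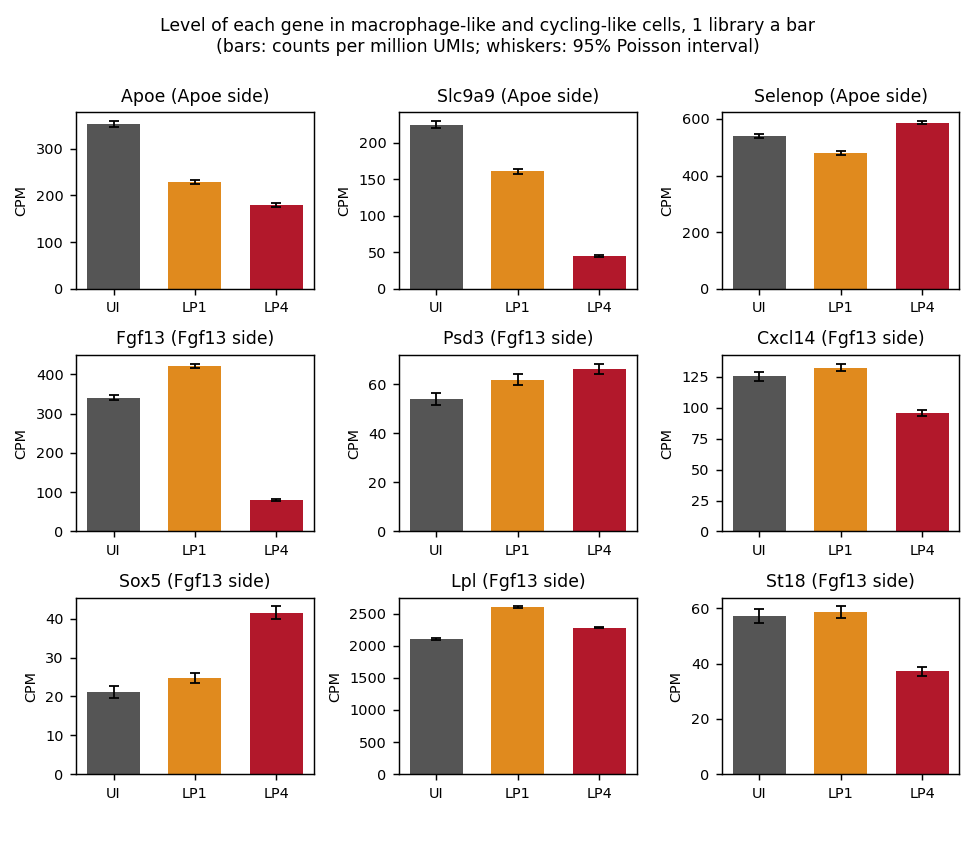
Level of each of the 9 genes (vertical axis, counts per 1000000 UMIs, CPM, from 0) in UI, LP1 and LP4, 1 bar per library with its 95% Poisson interval. Slc9a9 falls from 225 to 45.0 CPM and Fgf13 from 341 to 80.8 CPM in LP4, while Sox5 goes from 21.2 to 41.5 CPM.

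To compare how many cells held a UMI of each gene, 2000 UMIs were drawn at random from each cell, and 95 UI, 6 LP1 and 8 LP4 cells with fewer were dropped. Slc9a9 was seen in 30.9% of thinned UI cells, 23.9% of LP1 and 8.54% of LP4 cells, and Fgf13 in 26.7%, 31.9% and 11.1%. Apoe was seen in 25.1%, 17.8% and 17.9%. The shares thus moved with the levels for Slc9a9 and Fgf13, while for Apoe the share was level between LP1 and LP4 as its CPM went on down. Without thinning the shares of Slc9a9 were 48.6%, 49.9% and 32.7%, of Fgf13 41.0%, 52.9% and 33.0%, and of Apoe 33.7%, 29.9% and 33.1%. The order of the unthinned Apoe shares goes against its CPM, and no order was read from it.

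With intervals apart, the share of LP1 was lower than that of UI for 3 members (background 16.1% of 7743 genes) and higher for 2 (background 14.9%). In LP4 it was lower for 5 (background 36.8% of 8010 genes) and higher for 2 (background 31.7%), and against LP1 it was lower for 5 (background 32.5% of 7945 genes) and higher for 2 (background 27.7%). Apoe was among the 5 against UI only, and Lpl against LP1 only. The 3 members lower in LP1 at 2000 UMIs were the Apoe side, and the 2 higher were Fgf13 and Lpl, but not all of these calls held at 4000 UMIs. Thinning to 4000 UMIs, which kept 4252 of 5941 UI cells, ended both higher calls. Fgf13 was then in 41.3% of UI and 41.5% of LP1 cells, Lpl in 86.6% and 85.5%, which turns its direction, and Selenop in 69.8% and 69.8%. The lower call of Selenop thus ended too. That depth kept 4852 of 4970 LP1 cells, so mainly UI lost its shallow cells. Depth went with the sides in UI. By the Fgf13-side order described below, the lowest quintile had a median of 3759 UMIs and the highest 6115.5. The part of these lost cells in the ended calls was not tested. At 2000 UMIs Lpl was in 73.8% of UI cells, 80.6% of LP1 and 73.8% of LP4 cells, Selenop in 56.5%, 52.1% and 59.5%, and Cxcl14 in 16.7%, 18.3% and 13.8%. St18 was in 9.36%, 9.13% and 5.64%, Psd3 in 7.95%, 8.62% and 8.71%, and Sox5 in 3.32%, 4.11% and 6.37%. Without thinning Lpl was in 79.6%, 87.6% and 85.2% of cells and Selenop in 79.6%, 87.8% and 94.0%. For the rest the unthinned shares were 35.3%, 48.5% and 43.8% (Cxcl14), 22.4%, 30.5% and 21.4% (St18), 18.5%, 29.1% and 24.7% (Psd3) and 7.93%, 13.5% and 22.7% (Sox5).

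Free RNA can give a UMI to a cell that does not express a gene, so the shares were set beside those of neutrophil-like cells. These had medians of 2940, 5891 and 9261.5 UMIs in UI, LP1 and LP4 before thinning, against 5203.5, 9369 and 11881 in the macrophages that were thinned. Of 70 such cells over the 3 libraries, 0 had a UMI of Fgf13, Cxcl14, Sox5 or St18, which allows a share of up to 5.13%. In this small number of cells the limit lies above the UI and LP1 shares of Sox5. Apoe was in 1 of the 70 (1.43%), Slc9a9 in 2 (2.86%), Selenop in 3 (4.29%) and Lpl in 5 (7.14%). Psd3 was in 7 (10.0%, 4.12% to 19.5%), a share not below that of the macrophages, so that it is not read as particular to macrophages. At full depth the neutrophil-like cells held 33.0 CPM of Psd3 and 39.2 CPM of Lpl. Whether these UMIs came from free RNA or from the cells themselves was not tested. The levels and correlations of Psd3 below rest on the same kind of counts, and free RNA was not measured apart from them.

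Between single cells, the 2 sides were opposed in all 3 libraries. Correlations were taken over cells thinned to 2000 UMIs, as Pearson r of log values, over 5846 UI, 4964 LP1 and 4521 LP4 cells. The cells of a library share its free RNA and its chemistry, and thinning makes r smaller. Each r is a description.

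In UI and LP1 the largest r in size was that of Slc9a9 and Lpl, at -0.45 in UI, -0.41 in LP1 and -0.17 in LP4. Selenop and Lpl, with the largest in LP4, gave -0.37, -0.34 and -0.37, and Apoe and Lpl -0.30, -0.33 and -0.28. By r, Lpl was therefore the gene of its side most opposed to all 3 genes of the Apoe side. Its r with Slc9a9 was smallest in LP4, where Slc9a9 was low. Lpl also had the highest level of all members, and the part of level in the size of r was not tested. By fold between quintiles of the Apoe-side order described below, Fgf13 differed more than Lpl. The folds were 5.64 against 3.97 in UI, 4.40 against 3.56 in LP1 and 4.83 against 3.93 in LP4. Within sides, Fgf13 and Lpl gave 0.35, 0.33 and 0.18, Apoe and Selenop 0.29, 0.32 and 0.27, and Slc9a9 and Selenop 0.31, 0.25 and 0.13. The pairs that changed most between LP1 and LP4 held Slc9a9 or Fgf13, the genes that fell.

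Of 18 pairs of opposite sides, 18 had a negative r in UI, 18 in LP1 and 17 in LP4, and 9, 8 and 5 were at -0.1 or lower. Of all pairs of genes with at least 20 CPM, 0.0383% (UI), 0.0318% (LP1) and 0.0184% (LP4) were that low. Of 18 pairs within a side, 16, 15 and 18 had a positive r and 9, 10 and 6 were at 0.1 or higher, beside 0.0721%, 0.061% and 0.042% of all pairs. The UI counts follow from how the genes were chosen. The LP1 and LP4 counts come from other cells, but the genes were chosen with earlier results of these data known. A score of each side, the mean of its scaled log values, gave an r between sides of -0.40 in UI, -0.38 in LP1 and -0.29 in LP4. Depth moved with both scores, at r from -0.26 to -0.23 for the Apoe side and from 0.25 to 0.26 for the Fgf13 side with the log of total UMIs before thinning. The share of mitochondrial UMIs gave at most 0.19 in size, for the Fgf13 side in LP4, and Malat1 at most 0.11, for the Fgf13 side in LP1. Their part in the opposition was not tested.

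St18 showed little of the pattern in thinned cells. Its r with the other 8 genes lay between -0.05 and 0.02 in every library, small values that in sparse counts do not exclude a relation. Selenop was in 49.9% of UI cells with St18 (45.6% to 54.2%) and in 57.2% of those without it (55.8% to 58.5%). In LP4 Selenop was in 50.6% and 60.1%, also with intervals apart, while in LP1 its intervals overlapped. Psd3 and Sox5, also sparse, reached 0.18 with Lpl in LP4 and 0.14 with Fgf13 in UI. At full depth the r of St18 with Selenop in LP4 was -0.14.

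**Figure D2:**
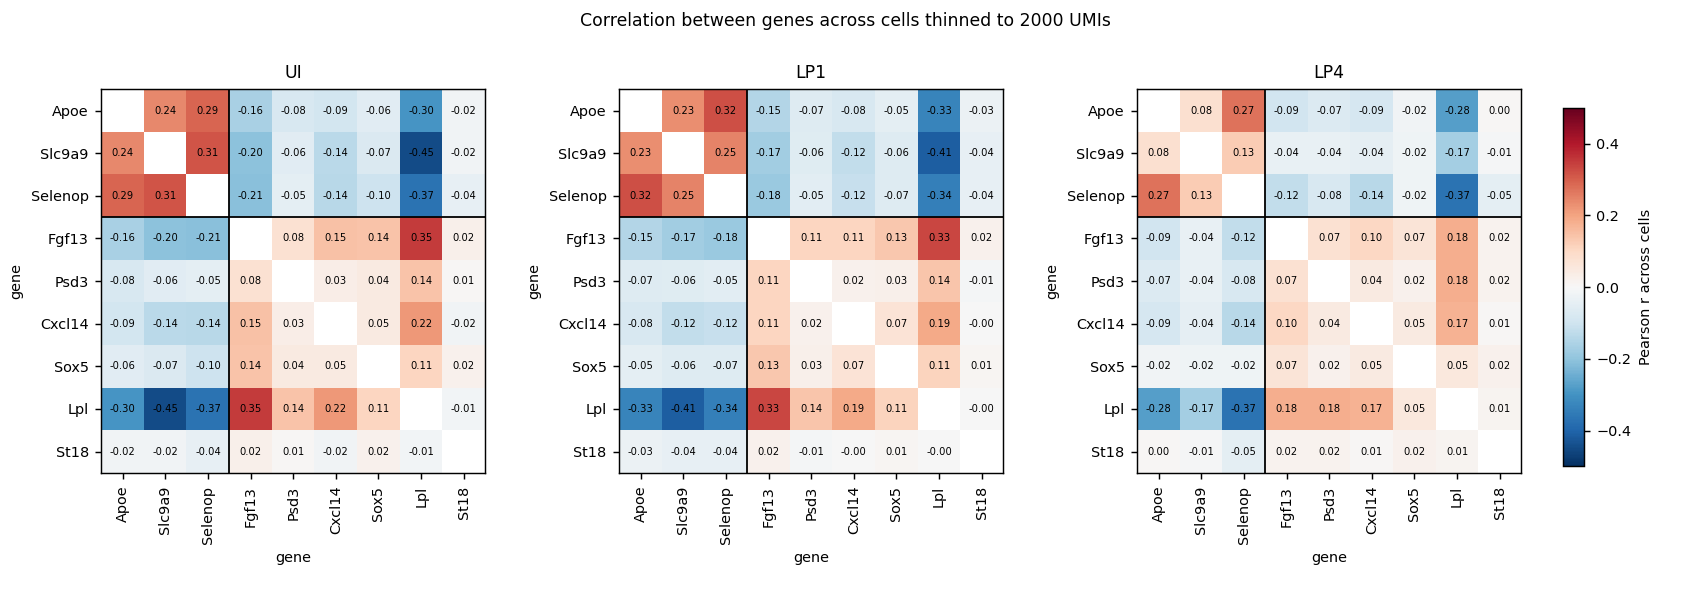
Pearson r between the 9 genes (rows and columns) across cells thinned to 2000 UMIs, 1 panel per library, with the color scale from -0.5 to 0.5 and black lines between the 2 sides. The off-diagonal blocks are negative in UI and LP1, with Slc9a9 and Lpl at -0.45 and -0.41, and are paler in LP4, while the row of St18 stays near 0 throughout.

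Cells with a UMI of Lpl in thinned counts held the Apoe side less often. In UI, Slc9a9 was in 20.4% of the 4312 cells with Lpl (19.2% to 21.6%) and in 60.5% of the cells without it (58.0% to 63.0%). Apoe was in 19.0% and 42.2% of the same cells, and Selenop in 49.0% and 77.6%. In LP1, which did not enter the rule, Slc9a9 was in 16.3% and 55.3%, Apoe in 12.5% and 39.7% and Selenop in 46.3% and 76.5%. In LP4 the shares with and without Lpl were 6.06% and 15.5% for Slc9a9, 12.5% and 33.0% for Apoe and 51.8% and 81.4% for Selenop. The intervals of cells with and without Lpl were apart for each of the 3 genes in every library.

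The opposition was also large in CPM. Cells of a library were ordered by the score of a side and cut into 5 equal groups (quintiles), and the UMIs of the highest and lowest quintile were summed. In UI, cells of the highest quintile by the Fgf13 side held 119 CPM of Apoe against 1014 in the lowest, a log2 ratio of -3.09 (-3.19 to -2.99). Slc9a9 was at 107 against 609 CPM and Selenop at 303 against 1178 CPM. Every gene of the Apoe side was thus lower in cells with a high score of the other side, by 8.51-, 5.69- and 3.89-fold for Apoe, Slc9a9 and Selenop. By at least 2-fold, 5.68% of 7972 genes were lower in that contrast. What the members show against that share in UI follows from how they were chosen.

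The same held after treatment. In LP1 the 3 genes were lower by 9.72-, 7.32- and 3.85-fold for Apoe, Slc9a9 and Selenop (background 5.25%), and in LP4 by 10.8-, 4.42- and 4.12-fold (background 2.61%). Slc9a9 kept a 4.42-fold difference in LP4, 21.8 against 96.5 CPM, although its level was lower than in UI in each quintile of that order. By this order the LP4 quintile with most Slc9a9 stood below the UI quintile with least, at 107 CPM. By the Apoe side it did not, with 94.6 CPM in the highest LP4 quintile and 66.6 CPM in the lowest UI quintile. Apoe fell in both ends, from 1014 to 522 CPM in the quintile with the lowest Fgf13-side score and from 119 to 48.4 CPM in the quintile with the highest.

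Ordered the other way, by the Apoe side, the highest quintile of UI cells held 94.5 CPM of Fgf13 against 534 in the lowest, a log2 ratio of -2.50 (-2.63 to -2.37). Lpl was at 731 against 2904 CPM, Cxcl14 at 50.6 against 173 CPM and Sox5 at 3.44 against 35.6 CPM. Psd3 (29.7 against 54.0 CPM) and St18 (49.6 against 62.0 CPM) differed by less than 2-fold. So 4 of the 6 genes were past 2-fold in UI, where 8.19% of 7945 genes were lower in that contrast and where the genes were chosen. In LP1 Psd3 joined them at 2.24-fold (background 8.18%), with an interval that overlapped that of UI. In LP4 Sox5 was just under 2-fold (1.98-fold, 28.4 against 56.1 CPM) and St18 just over it (2.05-fold, 25.2 against 51.6 CPM), so that the count stayed at 5 (background 7.27%) with other genes in it.

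The contrast narrowed for Sox5 and, in LP4, widened for Psd3 and St18. Sox5 was 10.4-fold lower in the quintile with the highest Apoe-side score in UI, 4.19-fold in LP1 and 1.98-fold in LP4. In that quintile its level was 3.44, 8.38 and 28.4 CPM in UI, LP1 and LP4, while in the lowest it was 35.6, 35.1 and 56.1 CPM. In LP1 the narrowing thus came with more Sox5 in the highest quintile only, while in LP4 both quintiles held more Sox5 than in UI. Psd3 had 1.82-fold in UI, 2.24-fold in LP1 and 3.21-fold in LP4. Its log2 intervals overlapped between UI (-1.13 to -0.61) and LP1 (-1.37 to -0.96), and that of LP4 (-1.88 to -1.49) was apart from both. St18 had 1.25-fold in UI, 1.35-fold in LP1 and 2.05-fold in LP4, with intervals likewise apart in LP4 only. From UI to LP4 it fell from 49.6 to 25.2 CPM in the highest quintile and from 62.0 to 51.6 CPM in the lowest.

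**Figure D3:**
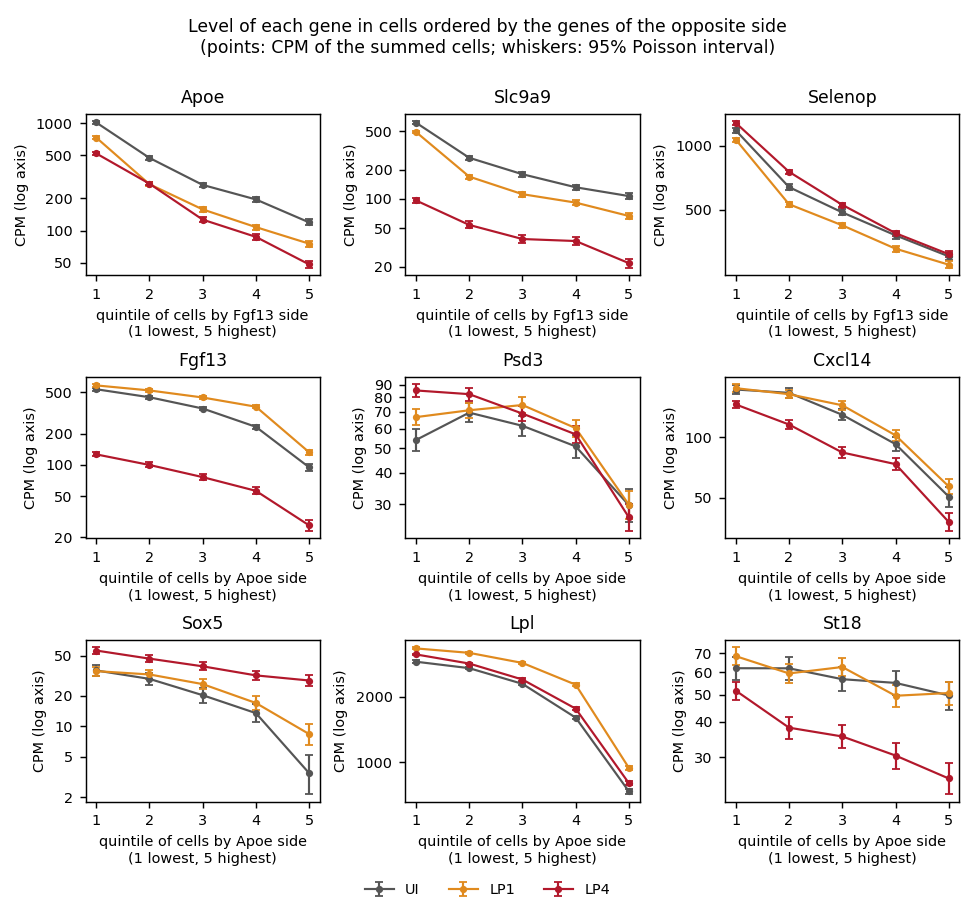
Level of each gene (vertical log axis, CPM with 95% Poisson interval) in quintiles of cells ordered by the score of the opposite side (horizontal axis, 1 lowest to 5 highest), 1 line per library. Apoe in UI goes from 1014 CPM to 119 CPM, and every gene is lower in quintile 5 than in quintile 1 in every library, least so St18 in UI (62.0 to 49.6 CPM).

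Genes of the same side rose together, each measured in cells ordered by the other genes of its side. Fgf13 was 28.5-fold higher in the highest than in the lowest quintile of UI cells, 17.3-fold in LP1 and 10.9-fold in LP4. Apoe was 13.5-, 25.2- and 17.4-fold higher by the score of Slc9a9 and Selenop. St18 was at 53.8 against 51.2 CPM in UI and 54.7 against 56.3 CPM in LP1, which are not apart, and at 42.5 against 22.2 CPM in LP4. By the Fgf13 side 11.2% (UI), 11.1% (LP1) and 9.4% (LP4) of all genes were higher by at least 2-fold. St18 stayed under 2-fold in all 3 libraries, and its intervals were apart in LP4 only.

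Cell quality moved with the order of cells. The median of total UMIs was 4240.5 in the highest and 6013 in the lowest quintile of UI cells by the Apoe side, 7309.5 and 10366.5 in LP1, and 9768 and 14310.5 in LP4. Cycling-like cells were 2.02% and 10.7% of the same quintiles in UI, 1.51% and 11.1% in LP1 and 0.994% and 8.61% in LP4. By the Fgf13 side the gap in depth was wider. The highest and lowest quintiles had medians of 6115.5 and 3759 UMIs in UI, 10429.5 and 6712.5 in LP1, and 14672 and 8831.5 in LP4. Their median mitochondrial shares in LP4 were 3.51% and 2.86%. Of 20 cell cycle markers, 18 were lower by at least 2-fold in the highest quintile by the Apoe side in UI, as were 16 of 19 in LP1 and 19 of 20 in LP4, and of 4 osteoclast markers 3 were lower in each library. Of all genes, 8.19% (UI), 8.18% (LP1) and 7.27% (LP4) were lower by at least 2-fold in that contrast. The part of depth and of the cell cycle in the size of the differences between quintiles was not tested. A score of 0 was held by 774 of 5941 UI cells for the Apoe side and by 873 for the Fgf13 side, so the order within the lowest quintile is partly arbitrary. The counts of members past 2-fold between quintiles were within 1.5 times of those above without cycling-like cells, with the order taken from thinned cells, and without the 5% of cells with the highest doublet scores.

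The cells were also clustered on 2000 variable genes that left out the 9 members. These were drawn from 5236 genes whose level differed by less than 1.5-fold between libraries. Of the clusters, 5 macrophage-like or cycling-like ones with at least 50 cells in each library were compared. Cluster A was led by Egr3, Ms4a6b, Nr4a3 and F13a1, B by Mgll, Eef1a2, Mmp9 and Ctsk, C by Ccnd1 and Mcm3, D by Hal and Iqgap2, and E, the cycling-like cluster, by histone genes and Aspm. Cluster A was 35.8% of UI, 32.6% of LP1 and 37.1% of LP4 cells kept. Cluster C was 20.9%, 24.7% and 19.5%.

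All 3 genes of the Apoe side were highest in A and next in D in every library, and 5 of the 6 genes of the other side were highest in C. In UI Apoe ranged from 796 CPM in A to 98.9 in C, Slc9a9 from 520 in A to 57.0 in B, and Selenop from 1023 in A to 256 in E. Lpl ranged from 3345 CPM in C to 481 in A, Fgf13 from 673 to 59.9, Cxcl14 from 207 to 49.5 and Sox5 from 43.7 to 2.95. The 2 sides thus met in A and C as opposite ends, with B on the Fgf13 side for Lpl, Fgf13 and Cxcl14 but not for Psd3. Psd3 was at 110 CPM in C and 97.6 in E but at 21.4 in B and 22.4 in A, which do not differ beyond their intervals. St18 had its own order, with B highest at 74.3 CPM, D at 65.7, A at 50.4, E at 43.9 and C at 43.3, a range of 1.72-fold. The order of A and D for Apoe depended on the clustering. At a resolution of 0.8 Apoe in UI was highest in cells led by Hal and Slc9a9, not in those led by Egr3.

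At least 2-fold between the highest and lowest cluster was seen for 8 of 9 members in UI (background 30.1% of 8439 genes), 8 in LP1 (28.5%) and 9 in LP4 (25.1%). The UI counts follow from how the genes were chosen, although the clusters left them out. At least 4-fold was seen for 7 members in each library (background 8.76%, 8.39% and 7.1%). The same members were not past it throughout. Sox5 had 14.8-fold in UI, 5.85-fold in LP1 and 2.60-fold in LP4, Slc9a9 9.13-, 10.3- and 4.94-fold, and Psd3 5.15-, 4.49- and 7.73-fold. With fewer clusters (a resolution of 0.3), the members past 4-fold were 3, 2 and 2.

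**Figure D4:**
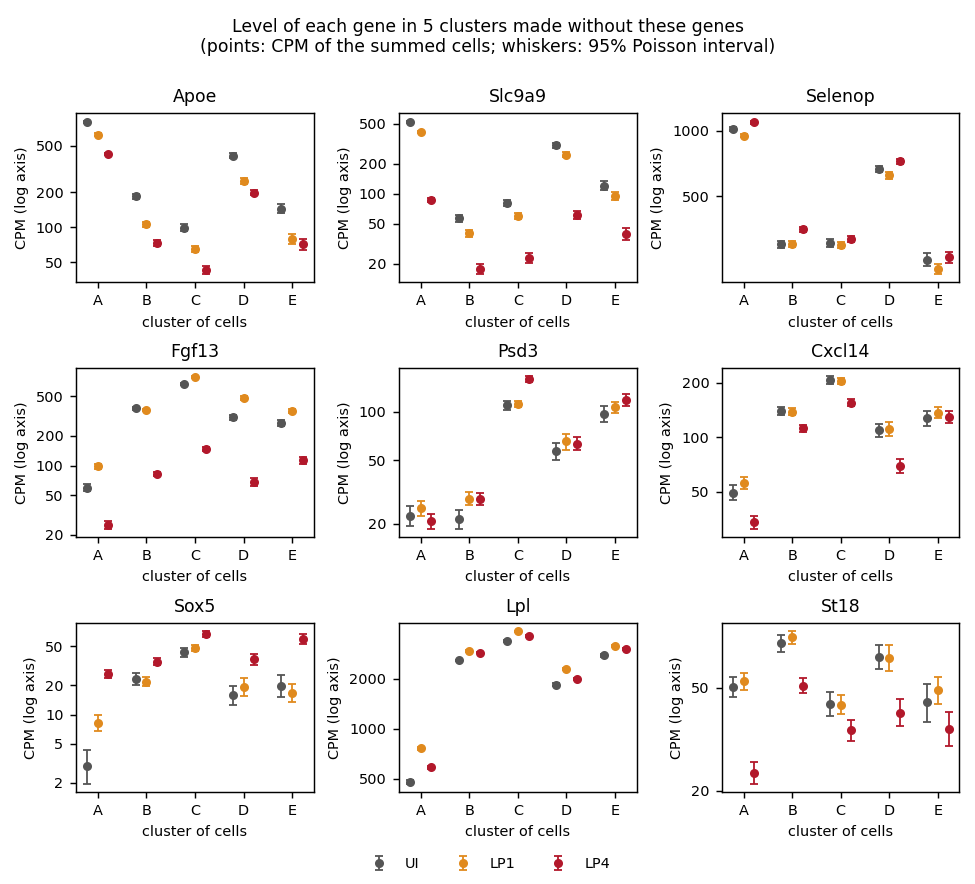
Level of each gene (vertical log axis, CPM with 95% Poisson interval) in clusters A to E of cells, 1 point per library. Apoe, Slc9a9 and Selenop are highest in A, Fgf13, Psd3, Cxcl14, Sox5 and Lpl in C, St18 in B, and the Sox5 points of A rise from 2.95 CPM in UI to 26.0 CPM in LP4.

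Within clusters, where a change in the mix of cells has less weight, Slc9a9 and Fgf13 were each lower in LP4 than in UI by at least 2-fold in 5 of 5 clusters. The log2 ratio of Slc9a9 lay between -2.58 in A and -1.59 in E, and that of Fgf13 between -2.21 in B and -1.25 in A and E. Apoe was lower in 5 of 5 clusters, from -1.33 in B to -0.90 in A, and past 2-fold in 4. St18 was lower in 5 of 5, from -1.10 in A to -0.34. Selenop lay between 0.04 and 0.23, with intervals that spanned 0 in C and E. Slc9a9 thus fell most in the cluster where it was highest, and Fgf13 least in the cluster where it was lowest and in the cycling-like cells.

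Sox5 was higher in LP4 than in UI in 5 of 5 clusters, by log2 ratio most so in A. There it went from 27 UMIs in 2172 cells (2.95 CPM, 1.94 to 4.29) to 439 UMIs in 1734 cells (26.0 CPM, 23.6 to 28.5). In CPM the rise was larger in E, from 19.8 to 59.3. The log2 ratio was 3.14 (2.58 to 3.76) in A, 1.59 in E, 1.22 in D, 0.63 in C and 0.59 in B. In LP1 Sox5 was apart from UI in A only, at 8.23 CPM and a log2 ratio of 1.48 (0.86 to 2.15). In other clusterings, a comparison chosen after seeing the data, with the cluster of highest Apoe in UI, the log2 ratio of LP4 to UI was 2.10 (resolution 0.3), 1.43 (resolution 0.8) and 2.92 (10 neighbours). The cluster used at a resolution of 0.8 held 682 UI cells led by Hal and Slc9a9. Its leading genes were thus like those of D, so that 1.43 is not a value for the cells of A. At a resolution of 0.8 the cells led by Egr3 were 1322 in UI, 964 in LP1 and 18 in LP4, and those led by Cxcl5 and F13a1 were 542, 414 and 1484, so the cells of A are not alike in UI and LP4. Of 28 thinned neutrophil-like cells of LP4, 0 had a UMI of Sox5, which allows a share of up to 12.3%.

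In LP1 Fgf13 was higher than in UI in A (log2 ratio 0.71), D (0.65), E (0.41) and C (0.23), but not in B (-0.06). Lpl was higher in 5 of 5 clusters in LP1, most in A at 0.67 and from 0.19 to 0.31 in the rest. By log2 ratio, Fgf13, Lpl and Sox5 were therefore raised most, after 1 hour, in the cluster where they were lowest. For Fgf13 the interval in A (0.57 to 0.86) overlapped that in D (0.55 to 0.74). In CPM the rise of Fgf13 and Lpl in A was not the largest. Fgf13 went from 59.9 to 98.2 CPM in A and from 307 to 480 CPM in D. Lpl went from 481 to 766 CPM in A and from 3345 to 3829 CPM in C. Apoe and Slc9a9 were lower in LP1 in 5 of 5 clusters, from -0.87 to -0.35 and from -0.49 to -0.31.

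**Figure D5:**
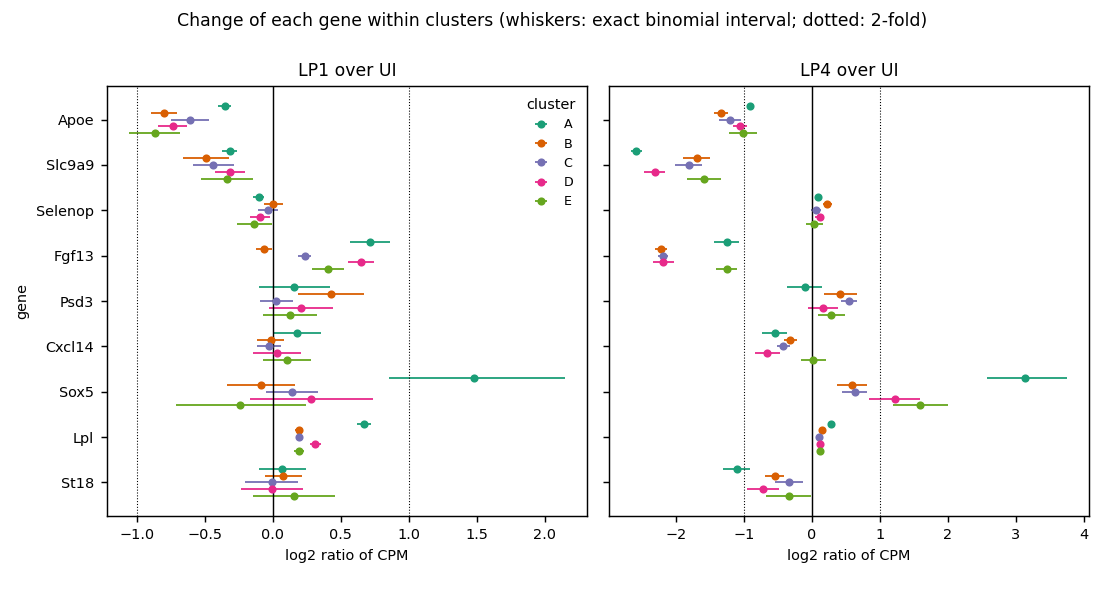
Log2 ratio of CPM to UI (horizontal axis) of each gene (vertical axis) within clusters A to E, in LP1 (left) and LP4 (right), with exact binomial intervals and dotted lines at 2-fold. In LP4 the 5 points of Slc9a9 and of Fgf13 lie left of -1, and the Sox5 point of cluster A lies at 3.14.

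The genes most like each side were found by their r with the side's score over thinned UI cells, among 3003 genes with at least 50 CPM. For the Apoe side they were Lyz2, encoding lysozyme (0.43), Ier3 (0.40), Cd86, a co-stimulatory receptor (0.39), and the chemokines Ccl3 (0.38) and Ccl7 (0.36). In LP4 Lyz2 was still at 0.35 and Ier3 at 0.25, but Ccl3 was at 0.02 and Ccl7 at -0.01. Ccl3 stood at 132 CPM in UI and 743 in LP4, and Ccl7 at 164 and 151 CPM. For the Fgf13 side they were Actb, encoding beta-actin (0.41), the protocadherin Pcdh7 (0.37), the cadherin Fat3 (0.30), cyclin D1 (Ccnd1, 0.28) and Hmga2 (0.27). All 5 were at 0.13 to 0.32 in LP4. Of the genes ranked, 8.99% (UI), 6.86% (LP1) and 4.19% (LP4) had an r of at least 0.1 with the Apoe side, and 5.89%, 6.02% and 3.21% with the Fgf13 side.

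Genes known from resident macrophages went with the Apoe side. Of 13 measured, 10 were higher by at least 2-fold in the highest than in the lowest quintile by the Apoe side and 0 were lower, in each of the 3 libraries, with median log2 ratios of 1.80 in UI, 1.84 in LP1 and a smaller one in LP4. The median over all genes tested was -0.08 in UI, -0.09 in LP1 and -0.13 in LP4, and 5.92%, 5.24% and 2.6% of genes were higher by at least 2-fold. F13a1, encoding a subunit of coagulation factor XIII, was at 119 against 7.42 CPM in UI and at 449 against 32.8 CPM in LP4. The complement genes C1qa and C1qb were at 180 against 15.6 and 143 against 15.2 CPM in UI. In level between LP4 and UI, 1 of the 13 was higher by at least 2-fold (background 10.6%), F13a1 at a log2 ratio of 1.98. Lower were 3 (background 9.93%), C1qa among them at -1.42. These counts are too few to read against that background.

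Of 11 lipid-associated macrophage genes, 0 were higher and 2 lower with the Apoe side in UI (background 8.19%) and LP1 (8.18%), and 4 lower in LP4 (7.27%). Itgax, encoding an integrin, was at 22.1 against 141 CPM in UI, and Spp1, encoding osteopontin, at 173 against 543 CPM. Of 21 genes that handle lipoproteins and lipids, the partners of Apoe and Lpl, 3 were higher with the Apoe side in UI and 0 lower. They were Abca1, the exporter of cholesterol to apolipoproteins (665 against 174 CPM), Pltp, a phospholipid transfer protein (508 against 205 CPM), and Mylip (103 against 49.8 CPM), which marks the LDL receptor for breakdown. In LP4 1 of 20 was higher, Abca1 at 363 against 132 CPM, and 2 lower, Cd36 at 413 against 998 CPM and Pparg at 14.0 against 34.3 CPM. Of all genes, 5.92% were higher and 8.19% lower in UI, and 2.6% and 7.27% in LP4, so that these counts are not read as a result about the list.

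Of 14 immediate early and stress genes, 6 were higher with the Apoe side in UI (background 5.92%) and 4 in LP1 (5.24%), and of 11 in LP4 3 were higher (2.6%) and 1 lower (7.27%). Egr3, a transcription factor of that class, was at 122 against 4.24 CPM in UI. Of the 14, 9 were themselves lower in LP4 than in UI by at least 2-fold (background 9.93%), with Fos at 24.5 CPM against 715 in UI. Zfp36 was higher, at 400 CPM against 93.2 in UI (background 10.6%).

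Phagocytosis genes that the study names, a list it chose on these samples and so not independent evidence, were higher with the Apoe side for 5 of 5 in UI (background 5.92%) and LP1 (5.24%) and 3 of 5 in LP4 (2.6%). In UI Ccl4 was at 335 against 19.6 CPM and Cd86 at 456 against 33.4 CPM. Of 4 antigen presentation genes of the study, also chosen on these samples, 2 were lower with the Apoe side in UI (background 8.19%), 1 in LP1 (8.18%) and 3 in LP4 (7.27%). Ccnd1, a cell cycle gene of that list, was at 25.4 against 149 CPM in UI. Both list names follow the Results of the paper. Its Discussion instead places Apoe and Slc9a9 with antigen-presenting macrophages, and Fgf13 and Ccnd1 with inflammatory ones.

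The families of the other members gave few such genes, beside 5.92% of all genes higher and 8.19% lower in UI. Of 19 genes listed with Selenop, mostly selenoproteins and genes of selenocysteine synthesis, 0 were higher and 1 lower with the Apoe side in UI. The lower one was Lrp8, of neither class, which encodes a receptor of selenoprotein P, at 4.42 against 12.1 CPM. Of 4 sodium-proton exchangers besides Slc9a9, 0 passed 2-fold in any library. Of 8 measured genes of ARF6 and its exchange factors, 1 was higher in UI, Cyth1 at 174 against 68.6 CPM. Of 5 CXC chemokines and receptors besides Cxcl14, 2 were higher with the Apoe side in UI, Cxcl10 (39.8 against 12.3 CPM) and Cxcr4 (26.1 against 8.88 CPM), the opposite side to Cxcl14. No relative of Fgf13 (11 listed) and no SOXD or MYT factor besides Sox5 and St18 (4 listed) reached 10 CPM, so neither family could be compared. In level between LP4 and UI, 4 of 7 CXC genes were higher (background 10.6%), among them Cxcl10 at 922 against 19.5 CPM, and 1 was lower (background 9.93%), while Cxcl14 was at 95.7 against 125 CPM.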

How the data were processed

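Single-cell RNA of BMDMs was measured in 3 libraries, 1 each for UI, LP1 and LP4. The authors made the deposited values, raw UMI counts for each gene in each barcode, with Cell Ranger 7.1.0 on mm10, per the submitters' processing notes. Whether intronic reads were counted is not given in the sources used here. The members and gene lists were chosen with earlier results of these data known.

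A barcode was kept if it held over 500 UMIs, over 500 genes and less than 5% mitochondrial counts, which left 6071 of UI, 5065 of LP1 and 4670 of LP4. UMIs were summed over macrophage-like and cycling-like clusters (35092881, 51660234 and 60168589 UMIs) and expressed as CPM. Intervals (95%) are exact Poisson for a level, conditional binomial for a log2 ratio and Clopper-Pearson for a share. Ratios were read for genes with at least 10 CPM in 1 of the groups compared, and called at 2-fold. Shares and correlations used cells thinned to 2000 UMIs. Clusters came from 2000 variable genes without the members, centred within libraries, 30 principal components, 20 neighbours and Leiden communities (resolution 0.5), and were named from marker lists. The variable genes were drawn from 5236 genes with at least 200 UMIs and a CPM that differed by less than 1.5-fold between libraries. Mitochondrial and ribosomal protein genes were left out of them. Scrublet marked 0 UI, 1 LP1 and 1 LP4 cells, too few to have worked, so that doublets were not removed. Instead the 5% of cells with the highest scores were left out as an alternative. Libraries shared 10 (UI and LP1), 7 (UI and LP4) and 4 (LP1 and LP4) barcodes.

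Genes named besides the members were the 5 with the highest r with each side in UI (at least 50 CPM), up to 5 leading genes of a cluster, genes among the 3 largest ratios of their list in a comparison, and genes that overlap a member. Scripts ran in Python 3.11.15 with scanpy 1.11.5, leidenalg 0.10.2, scikit-learn 1.9.0, scipy 1.17.1, numpy 2.4.6, pandas 2.3.3 and matplotlib 3.10.9. TMM factors came from edgeR 4.0.16 (R 4.3.3). The ratios were tested on simulated data. No test between conditions was made.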

Additional observations from a re-analysis of the deposited data

Results flagged for a closer look

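For 3 members the log2 ratio to UI had opposite signs at the 2 times. Fgf13 was at 0.31 in LP1 and -2.08 in LP4, Selenop at -0.17 and 0.12, and Cxcl14 at 0.08 and -0.39. Both times share the UI library, each is 1 library, and the difference between times was not tested.

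Of 70 thinned neutrophil-like cells, outside the cells compared, 10.0% had a UMI of Psd3 (4.12% to 19.5%) and 7.14% a UMI of Lpl (2.36% to 15.9%). Both intervals include the 5.13% that a count of 0 allows. For Psd3 the share was not below that of the macrophages (7.95% to 8.71%), and for Lpl it was far below (73.8% to 80.6%).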

How the results depend on the processing

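Of 192 values of the main results under alternatives, 178 stayed within 1.5 times of the main value. Under TMM scaling and under median-of-ratios scaling 1 member, Sox5, was higher by at least 2-fold in LP4 than in UI, in place of 0. For shares of cells in LP1 against UI, thinning to 4000 UMIs, which dropped shallow cells mainly of UI, left 0 members higher. It turned Lpl (86.6% in UI, 85.5% in LP1). It also ended the lower call of Selenop (69.8% and 69.8%). No thinning gave 7 higher and 1 lower and turned Selenop (79.6% and 87.8%) and Slc9a9 (48.6% and 49.9%). For LP4 against UI, no thinning gave 5 higher and 2 lower, where depth differs between libraries. Without thinning, pairs of opposite sides past 0.1 were 13 in LP1 and 13 in LP4, and pairs within a side 12 in LP4, where thinning to 4000 UMIs gave 10. At a resolution of 0.3, which leaves 3 clusters, members with at least 4-fold between clusters were 3 in UI, 2 in LP1 and 2 in LP4. Of 219 values of single genes, 143 stayed within the counting interval and 76 moved.

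No paired analysis was possible because each condition is 1 library, and for the same reason no replicate was left out. Intervals cover counting error only, so that differences between libraries cannot be told apart from differences between cultures or captures. Sox5 (743 UMIs in UI) and Psd3 limit what sparse counts can show between cells.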

Other observations

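The dendritic cell-like cluster, 78 UI, 63 LP1 and 65 LP4 cells led by H2-Eb1 and Ccl22, was not among the cells compared. Apoe in it had a log2 ratio of LP4 to UI of 0.04 (-0.23 to 0.31), beside -1.33 to -0.90 in the 5 clusters above, and Slc9a9 one of -3.43 (-4.30 to -2.66) on 16 UMIs in LP4. Lpl was at -0.37 (-0.55 to -0.20), beside 0.10 to 0.29. Sox5 was at 3.88 (1.27 to 9.23) on 1 UMI in UI and 27 in LP4, beside 0.59 to 3.14. The differences from the other clusters were not tested.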
